A study of Mus musculus with 9 samples.

Results

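Genes that wild-type tristetraprolin (TTP) and its phosphosite mutant TTP-AA moved alike were described in stimulated mouse macrophage lines. For each gene the log2 ratios GFP-TTP to GFP and GFP-TTP-AA to GFP were averaged into a shared effect, whose error came from the standard errors that the authors deposited with their 3 comparisons. A gene was called at an adjusted p under 0.05 (two-sided Wald test, Benjamini-Hochberg adjustment over all genes), and it counted as moved alike when both ratios lay on the same side of 0 and the smaller was at least 0.5 of the larger. Of 11977 genes listed in all 3 comparisons, 952 were called and 430 were moved alike, 184 higher and 246 lower than in GFP cells.

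TTP, encoded by Zfp36, is a zinc finger protein that binds AU-rich elements in the 3′UTR of mRNAs and recruits deadenylases, so that bound cytokine mRNAs are degraded or kept from translation. In macrophages exposed to lipopolysaccharide (LPS), the kinase MK2 phosphorylates TTP on a pair of serines, which leads to 14-3-3 binding and restrains its activity. In TTP-AA both serines are alanine. The mean of both forms against GFP holds what both TTP lines share, and the difference between them holds what sets the lines apart, the serines included.

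The cells were TTP-deficient bone marrow-derived macrophages that had been immortalized with hcmyc and hRasG12V, and cells positive for CD11b and F4/80 then received a tet-inducible vector. The 3 groups carried GFP, GFP-TTP or GFP-TTP-AA, with 3 libraries each, so the deficiency and both oncogenes were present in the GFP cells too. All 9 libraries came from cells given 1 µg/ml doxycycline for 6 h and 1 µg/ml LPS for 1 h, and rRNA-depleted total RNA was sequenced. Each vector defines 1 transduced line, and nothing states that the libraries of a group came from separate animals. A trait of the GFP line alone and an effect shared by both TTP forms cannot be told apart here, because both ratios rest on the same GFP libraries. The lines also differed from each other in all 4 tested Y-linked genes, which had lower ratios to GFP in GFP-TTP and higher ones in GFP-TTP-AA. For Kdm5d, Uty, Ddx3y and Eif2s3y the ratios lay between -1.22 and -0.88 in GFP-TTP and between 1.42 and 1.91 in GFP-TTP-AA, with medians of -1.04 and 1.52. A trait of a line and an effect of its TTP form therefore cannot be told apart in the difference between the forms either.

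The table of normalized counts held fitted means and not measured counts. After centring, its 9 columns had 4 singular values above 1e-06, and the ratio of a gene was the same in all 3 replicate numbers to within 1.36e-14 on the log2 scale. The values per library given here therefore show a gene's level and the shift between library dates, while their spread carries no biological scatter. A like order of the groups in each replicate number, or groups that do not overlap, restates the 1 fitted ratio and adds no support from separate libraries. Column sums of these fitted values ran from 21482954 to 102613526, and the depth in reads is unknown. The standard error of the shared effect had a median of 0.10 and ran from 0.06 to 0.20. Of 12 listed macrophage marker genes, 10 were among the tested genes, including Csf1r, Itgam, Cd68 and Spi1. Mertk was not, with fitted counts of 10.6 to 50.9. The marker counts given here were taken before the columns were put on 1 scale, so their range also follows the column sums. No fibroblast or lymphoid marker was among the tested genes, and the highest fitted count of any of them in any library was 13.7. Other lists did hold tested genes. The dendritic cell genes Flt3 and Zbtb46 reached fitted counts of 545 and 61.6, and S100a8 of the neutrophil progenitor list reached 541. On 1 scale Zbtb46 reached 44.3, and the mean normalized counts of Flt3 and S100a8 were 234 and 216. Macrophage markers together took 16253 to 21498 fitted counts per 1000000 in GFP, 13422 to 17882 in GFP-TTP and 18447 to 24331 in GFP-TTP-AA. Most of this sum was Lyz2, with a mean of 583533 normalized counts against 25966 for the next marker, Cd14. Lyz2 had log2 ratios to GFP of -0.30 for GFP-TTP and 0.18 for GFP-TTP-AA.

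Zfp36 itself was examined first. Its fitted counts were 1663, 1344 and 844 in GFP, 1699, 1373 and 862 in GFP-TTP, and 2695, 2177 and 1368 in GFP-TTP-AA. Its log2 ratio to GFP was 0.03 ± 0.17 (SE) for GFP-TTP and 0.70 ± 0.17 for GFP-TTP-AA, with a shared effect of 0.36 ± 0.15 (adjusted p 0.111). Reads of Zfp36 thus did not set both TTP lines apart from the GFP line, although they were higher with TTP-AA than with TTP by 0.67 (95% interval 0.34 to 1.00, adjusted p 0.000676 for the difference). The GFP cells hold reads of this locus despite the deficiency, so the level of Zfp36 does not measure how much of either form was made.

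The shared effect was called for 7.95% of all tested genes, 3.39% higher and 4.56% lower. Moved alike were 1.54% of tested genes as higher and 2.05% as lower. Of the 522 other called genes, 287 shared a direction but had a TTP-AA ratio over 2 times the TTP ratio, 117 had a TTP ratio over 2 times the TTP-AA ratio, and 118 had opposite directions, so that 1 form dominated the mean. The difference between the forms was itself called for 30.3% of tested genes, and for 40 of the 430 moved alike. Beyond error, the root mean square over genes was 0.18 for the shared effect and 0.20 for the difference between the forms divided by 2. Most alike effects were modest: the median was 0.39 for the higher and -0.39 for the lower genes, 127 of 430 reached 0.5 on the log2 scale, and 23 reached 1. In the lower genes the median ratio was -0.36 for GFP-TTP and -0.41 for GFP-TTP-AA, and in the higher genes 0.37 and 0.40. At the edges of the rule, 1600012H06Rik was inside with an adjusted p of 0.0499 and Csnk1g3 outside with 0.0502, while Fkbp9 was inside and Cdkn1a outside with a smaller ratio of 0.501 and 0.499 of the larger.

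**Figure D1:**
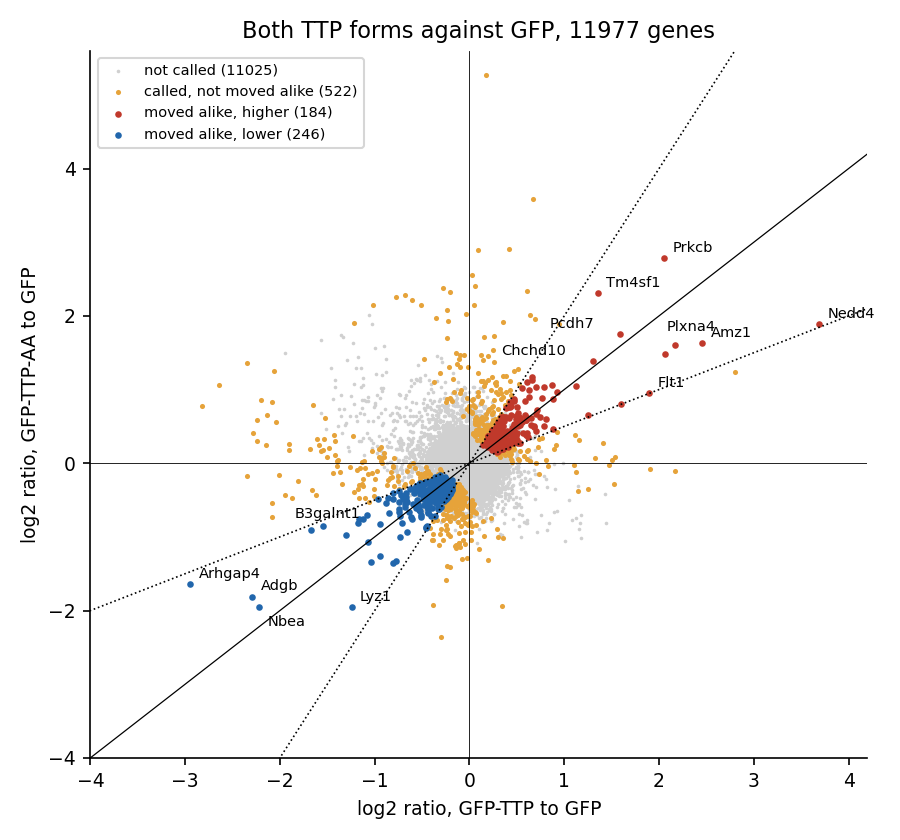
Log2 ratio of GFP-TTP to GFP (x axis) and of GFP-TTP-AA to GFP (y axis) for 11977 genes, each point 1 gene. The solid line marks equal ratios, and between the dotted lines the smaller ratio is at least 0.5 of the larger. The 184 higher and 246 lower genes moved alike fill that band on either side of 0, and 522 called genes lie outside it.

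The largest fall moved alike was that of Arhgap4. This gene encodes a GTPase-activating protein of blood cells (chromosome X, 73891442 to 73921870, minus strand, GRCm38, protein coding) and had fitted counts of 192, 158 and 132 in GFP, 24.9, 20.5 and 17.2 in GFP-TTP, and 61.6, 50.8 and 42.5 in GFP-TTP-AA. The shared effect was -2.29 ± 0.18 (adjusted p 2.33e-33), a fall of 4.90-fold. Nbea, a BEACH-domain protein of vesicle traffic, had 96.5, 65.2 and 84.0 in GFP, 14.0 to 20.7 in GFP-TTP and 16.9 to 25 in GFP-TTP-AA. Its shared effect was -2.09 ± 0.20 (adjusted p 7.83e-23). Adgb, which encodes the globin-like protein androglobin, changed by -2.05 ± 0.20 (adjusted p 3.04e-21). These 3 genes are weakly expressed, with a mean of 52.6 to 96.7 normalized counts, and Arhgap4 and Nbea share exonic stretches with genes of the opposite strand.

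Lyz1, a lysozyme that cleaves bacterial cell walls (chromosome 10, 117287797 to 117292868, minus strand, protein coding), was the most abundant gene among the leaders. Its fitted counts were 17592, 25416 and 21920 in GFP, 7428, 10732 and 9256 in GFP-TTP, and 4535, 6552 and 5651 in GFP-TTP-AA. The fitted level was highest in GFP and lowest in TTP-AA, and the shared effect was -1.60 ± 0.12 (adjusted p 9e-39). From TTP to TTP-AA it fell by a further -0.71 (95% interval -0.98 to -0.45, adjusted p 3.13e-06 for the difference). Reads of Lyz1 may be split with its close relative Lyz2, a macrophage marker gene. The other 8 of the 12 largest falls ran from -1.29 to -0.89. B3galnt1 and B3galt5, sugar transferases of glycolipids and glycoproteins, changed by -1.29 ± 0.17 and -0.96 ± 0.13. Cped1 changed by -1.07 ± 0.16 and Ano3, of the anoctamin membrane proteins, by -1.20 ± 0.17. Napsa, an aspartic protease, changed by -1.10 ± 0.18, Mylk, the myosin light chain kinase, by -1.08 ± 0.12 and Sema5a, a semaphorin guidance cue, by -1.05 ± 0.18. H2-DMb1, a subunit of the chaperone that loads peptides on MHC class II, fell by 0.89 ± 0.11 on the log2 scale (adjusted p 6.67e-14).

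The rises moved alike were led by Nedd4, an E3 ubiquitin ligase of membrane receptors and channels (chromosome 9, 72662346 to 72749852, plus strand, protein coding). Its fitted counts were 664, 557 and 552 in GFP, 8550, 7170 and 7104 in GFP-TTP, and 2465, 2067 and 2048 in GFP-TTP-AA. The shared effect was 2.79 ± 0.13 (adjusted p 3.33e-104), 6.91-fold. It covers a TTP-AA ratio of 1.89 ± 0.15 that was just over 0.5 of the TTP ratio of 3.69 ± 0.14. Prkcb, protein kinase C beta (chromosome 7, 122288751 to 122634402, plus strand, protein coding), followed with 97.8, 57.2 and 63.4 in GFP, 237 to 406 in GFP-TTP, and 672, 393 and 436 in GFP-TTP-AA. Its shared effect was 2.42 ± 0.16 (adjusted p 1.34e-50). Pcdh7, a protocadherin adhesion protein (chromosome 5, 57717967 to 58133230, plus strand, protein coding), was the most abundant of the 12 rises, with 1877, 2009 and 2706 in GFP, 5644, 6040 and 8137 in GFP-TTP, and 6310, 6752 and 9097 in GFP-TTP-AA. Its shared effect was 1.67 ± 0.11 (adjusted p 7.34e-48).

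The other 9 of the 12 largest rises ran from 0.95 to 2.04. Plxna4, a plexin that serves as a semaphorin receptor, rose by 1.88 ± 0.18 (adjusted p 1.54e-23), and Flt1, a receptor for vascular endothelial growth factor, by 1.42 ± 0.14 (adjusted p 2.53e-20). Tm4sf1, a tetraspanin-like surface protein, rose by 1.83 ± 0.15, Tm7sf3, a multi-pass membrane protein, by 1.09 ± 0.12 and Amz1, a metallopeptidase, by 2.04 ± 0.15. Chchd10, a protein of the mitochondrial intermembrane space, rose by 1.35 ± 0.15 and Fkbp9, a prolyl isomerase of the endoplasmic reticulum, by 1.20 ± 0.15. Mturn rose by 0.97 ± 0.17 and Stac2, an adaptor protein, by 0.95 ± 0.19. Exons of 12 of these 24 genes overlap a gene on the other strand (Amz1 with Gna12, Chchd10 with Mmp11, Tm7sf3 with Med21), and whether counting was stranded is not given in the sources used here. Such overlaps were held by 29.1% of the genes moved alike and 31.5% of all tested genes.

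Among the 24 genes with the largest effects, the forms were closest for Cped1, Chchd10, Tm7sf3, Pcdh7 and Mturn. The ratio of TTP-AA to TTP was -0.01 for Cped1 (95% interval -0.39 to 0.37), 0.09 for Chchd10 (-0.23 to 0.41), -0.08 for Tm7sf3 (-0.34 to 0.18), 0.16 for Pcdh7 (-0.09 to 0.41) and 0.18 for Mturn (-0.21 to 0.58). Nbea, Adgb and Napsa also missed the threshold for a difference, with intervals of -0.19 to 0.73, 0.02 to 0.94 and -0.71 to 0.10, which still allow sizeable differences. In the other 16 the difference was called, in either direction, on top of a shift that both forms had in common.

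**Figure D2:**
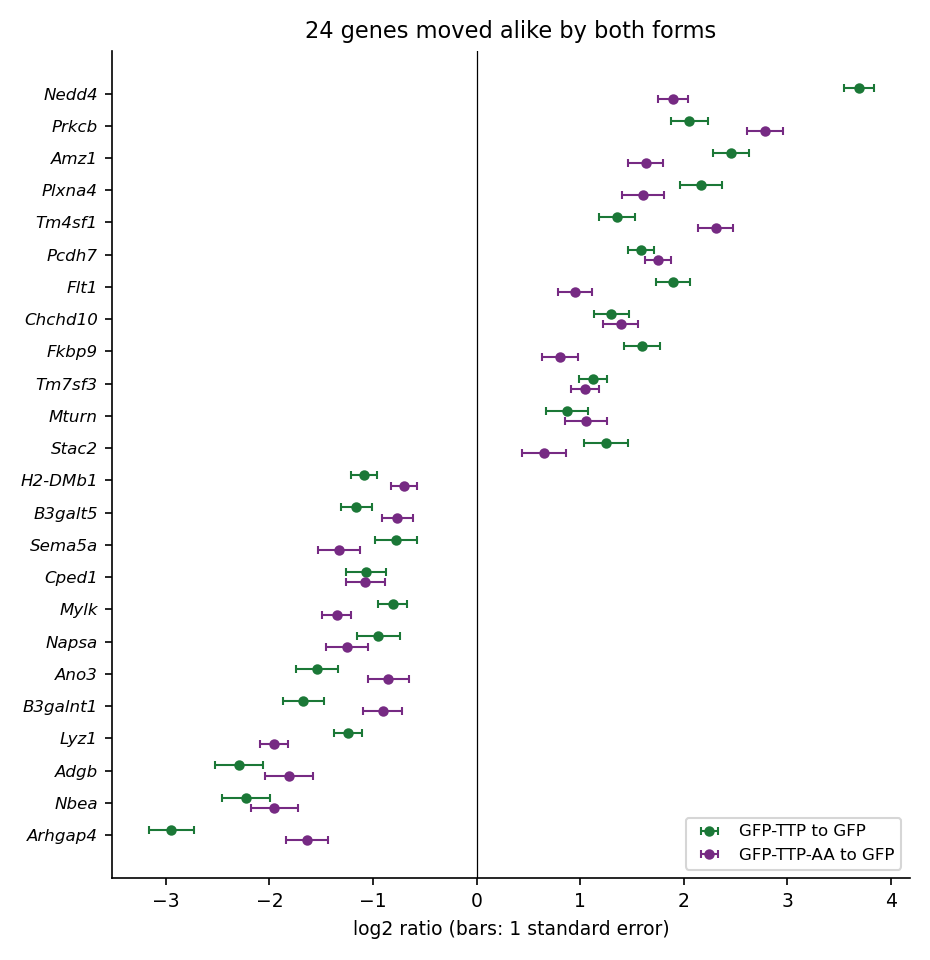
Log2 ratios to GFP of GFP-TTP (green) and GFP-TTP-AA (purple) for the 12 largest rises and 12 largest falls moved alike, with bars of 1 standard error from the deposited table. Both points of each gene lie on the same side of 0, and the forms sit together for Cped1, Chchd10 and Tm7sf3 and apart for Nedd4 and Arhgap4.

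Of the TTP family, Zfp36l2, a paralogue of TTP that also destabilizes AU-rich mRNAs (chromosome 17, 84183931 to 84187947, minus strand, protein coding), was lowered by both forms. Its fitted counts were 6577, 4135 and 3639 in GFP, 4866, 3059 and 2692 in GFP-TTP, and 4279, 2690 and 2368 in GFP-TTP-AA. The groups overlapped because the fitted shift between replicate numbers, the same in all groups, was larger than the ratios. All 3 were highest in number 1. Its ratio was -0.43 ± 0.12 for TTP and -0.62 ± 0.12 for TTP-AA, and the shared effect was -0.53 ± 0.11 (adjusted p 7.09e-05). The adjusted p was 0.0507 when scores were divided by their central spread of 1.44.

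Early LPS response genes held 37 tested members, of which 1 was higher and 4 were lower in the shared effect, with a median of 0.02 against 0.00 over all genes. The share called was 13.5%, against 7.95% of all tested genes. Klf2, a transcription factor that restrains inflammatory activation (chromosome 8, 72319033 to 72321656, plus strand, protein coding), was moved alike with 387, 282 and 276 in GFP, 233, 170 and 166 in GFP-TTP, and 235, 171 and 168 in GFP-TTP-AA. The fitted values of both TTP lines were alike and below those of GFP, with ratios of -0.73 ± 0.18 and -0.72 ± 0.18 and a shared effect of -0.73 ± 0.16 (adjusted p 0.00023). Jun, an AP-1 subunit (chromosome 4, 95049034 to 95052222, minus strand, protein coding), had 6242, 5196 and 2715 in GFP, 4850, 4037 and 2110 in GFP-TTP, and 4588, 3819 and 1995 in GFP-TTP-AA. Its groups overlapped through the fitted shift between replicate numbers, and its shared effect was -0.40 ± 0.11 (adjusted p 0.00754). With scores divided by their central spread the adjusted p was 0.0806 for Klf2 and 0.295 for Jun. The remaining 3 called members were not moved alike. Il23a, the p19 subunit of interleukin-23, had ratios of -0.40 and -1.05, Ier3 -0.04 and -0.94, and the chemokine Ccl7 0.15 and 1.05 for TTP and TTP-AA.

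Known TTP targets were examined next. Tnf, the best known target, had fitted counts of 35216, 41364 and 36033 in GFP, 29674, 34854 and 30363 in GFP-TTP, and 31632, 37154 and 32366 in GFP-TTP-AA. The shared effect of -0.20 ± 0.14 did not pass the test (adjusted p 0.470). Dusp1, a phosphatase that switches off p38, had ratios of -0.57 ± 0.23 for both forms, and its shared effect of -0.57 ± 0.20 fell just short with an adjusted p of 0.0502. The NF-kB inhibitors Tnfaip3 and Nfkbia had shared effects of -0.14 ± 0.16 and 0.00 ± 0.10 (adjusted p 0.700 and 0.992). By another assay, RT-qPCR, the study reported that both forms lowered the mRNAs of Dusp1, Ier3 and Tnfaip3 under LPS. It described a similar reduction for Tnf. Of 27 mRNAs that the study listed as bound by TTP in iCLIP, a crosslinking assay, 0 were called higher, 2 were called lower (Ier3 and Cdkn1a) and 0 were moved alike, with a median of 0.01. The share called, 7.41%, was near the 7.95% of all tested genes. The study chose that list from its own iCLIP of macrophages with these constructs. It holds the 25 mRNAs ranked highest by crosslinks in the 3′UTR and 2 selected ones, and is only a part of the bound mRNAs. Actb is among them, which the study treated as a negative control. Ier3, a survival gene of the early response, had a shared effect of -0.49 ± 0.14 (adjusted p 0.00856), with ratios of -0.04 ± 0.16 and -0.94 ± 0.16. The cell cycle inhibitor Cdkn1a had -0.35 ± 0.10 (adjusted p 0.00880). Among 20 feedback inhibitors, 1 was higher (Socs1, 0.55 ± 0.18, ratios -0.22 and 1.31) and 1 was lower (Ier3), or 10.0% against 7.95% of all tested genes. The custom TNF and NF-kB set was taken as the 142 genes of the study's supplement, which is more than its text describes. It had 1 higher and 6 lower of 121 tested (5.79% called), 2 of them moved alike (Jun and Zdhhc17).

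**Figure D3:**
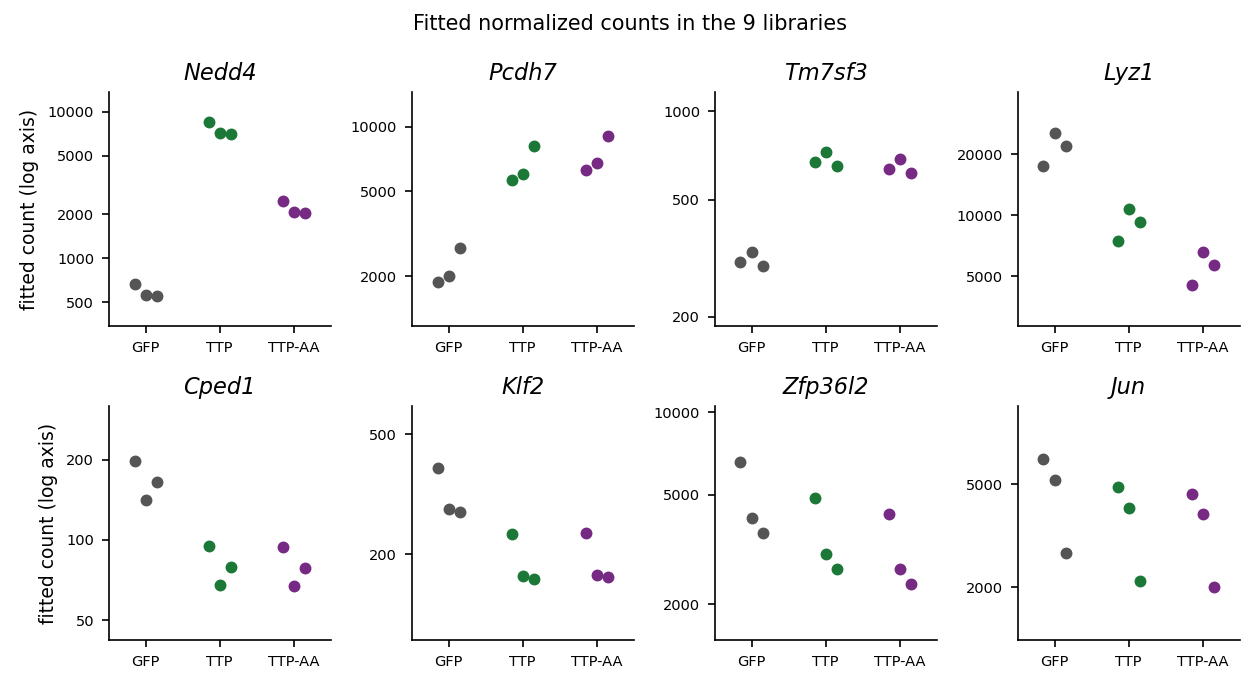
Fitted normalized counts (log axis) of 8 genes in the 9 libraries, with points in the order of replicate numbers 1 to 3 in each group. For Nedd4, Pcdh7, Tm7sf3, Lyz1, Cped1 and Klf2 both TTP lines are apart from GFP, while Zfp36l2 and Jun overlap across numbers. The shift between replicate numbers is the same in all groups because the values are fitted means.

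The 3′UTRs of the genes moved alike were searched for TATTTAT, the core that TTP family proteins bind (UAUUUAU in RNA), on the sense strand, in the transcript with the longest coding sequence. Of 10776 tested genes with a 3′UTR, 27.7% held at least 1 copy. Among the genes moved alike it was held by 116 of 231 lower genes (50.2%) and by 31 of 165 higher genes (18.8%). These counts are a description and were not tested. The 3′UTRs of the lower genes were also longer, with a median of 1553 bases against 922 in the higher genes and 972 in all, and had a median AU content of 58.2% against 54.3% and 55.6%. Within length classes the lower genes held the motif more often than all genes at each length: 20.4% against 6.89% under 500 bases, 57.1% against 20.1% from 500 to 1000, 49.2% against 32.3% from 1000 to 2000, and 65.2% against 54.7% from 2000 bases. The higher genes were below all genes in each class, with only 2 of 54 under 500 bases and 1 of 34 from 500 to 1000. Outside chromosomes 3 and 19 the share was 53.4% of 161 lower genes and 20.7% of 111 higher genes. With a trend on GC content and length removed from both ratios it was 45.1% of 206 and 19.5% of 159. The low share in the higher genes depended on the setting. With each ratio centred on the median of its chromosome, 29 of 110 higher genes (26.4%) held the motif, near the 27.7% of all. With scores divided by their central spread it was 9 of 33 (27.3%).

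**Figure D4:**
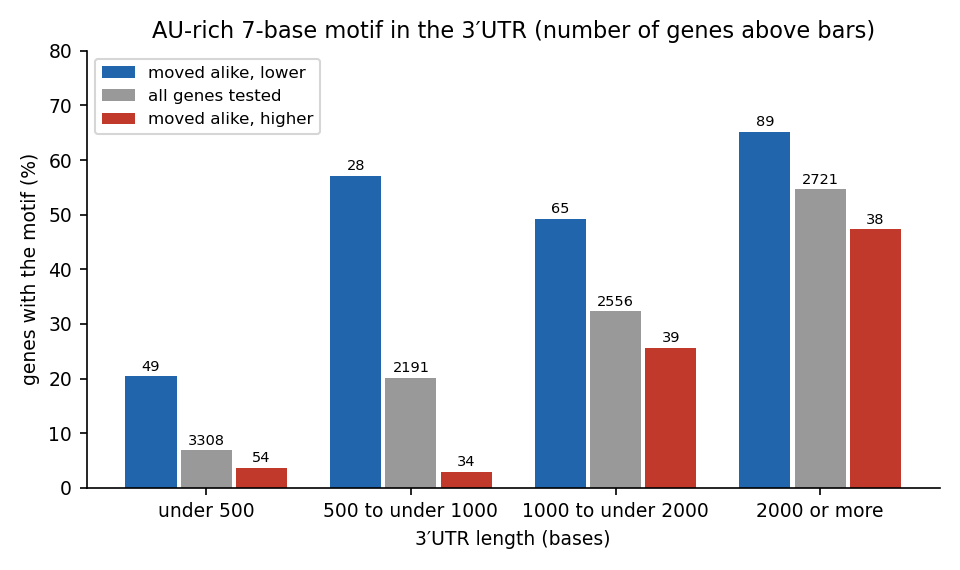
Share of genes whose 3′UTR holds TATTTAT (y axis, percent) by 3′UTR length in bases (x axis), for genes moved alike and lower (blue), all tested genes (grey) and genes moved alike and higher (red), with the number of genes above each bar. In all 4 classes blue is above grey and red is below it, and the gap between blue and grey is smallest at 2000 bases or more.

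Across all tested genes the shared effect was lower with more copies. Its median was 0.02 in 7793 genes with 0 copies, -0.04 in 1974 with 1, -0.08 in 648 with 2 and -0.10 in 361 with 3 or more. The medians of both forms went the same way, at -0.06 for TTP and -0.12 for TTP-AA with 3 or more copies, and 0.01 and 0.02 with none, and both rest on the same GFP libraries. Under 500 bases the median was -0.08 in 228 genes with the motif and 0.02 in 3080 without, and from 2000 bases it was -0.06 in 1488 and 0.00 in 1233. Under 500 bases most of this came from TTP-AA. The medians with the motif were -0.02 for TTP and -0.13 for TTP-AA, against 0.03 and 0.01 without. From 2000 bases they were -0.05 and -0.06, against -0.02 and 0.01. In size, these medians of the shared effect are below its median standard error for a single gene (0.104).

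The motif in its own context is shown for named genes lowered by both forms, since the share above rests on such sites. Of 21 such genes, 10 held it, and 9 of 17 named genes that rose alike did too. Ano3 and H2-DMb1 are among the lowered genes that held it, and their sites are not shown. Each line gives 27 bases of the transcript strand, 5′ to 3′, from GENCODE M21 on GRCm38, with the motif in capitals. Ppp1r15a and Zfp36l2 held 4 and 3 copies, B3galt5 and Nbea 2 each.
Zfp36l2, first site, chr17:84184915-84184941, minus strand: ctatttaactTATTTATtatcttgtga
Zfp36l2, second site, chr17:84184867-84184893, minus strand: gtccatactgTATTTATcgagtatgat
Zfp36l2, last site, chr17:84184681-84184707, minus strand: ttgtatgtaaTATTTATttcattaatt
Klf2, chr8:72320989-72321015, plus strand: aacagactgcTATTTATtggaccttag
Jun, chr4:95049080-95049106, minus strand: tgcttgtgcaTATTTATaatagcgttc
Ppp1r15a, first site, chr7:45522958-45522984, minus strand: agtttcctatTATTTATttatttattt
Nbea, first site, chr3:55625536-55625562, minus strand: agcatatcatTATTTATtgctgtgatt
B3galnt1, chr3:69574569-69574595, minus strand: tgtggagttgTATTTATtagacagtat
B3galt5, first site, chr16:96319794-96319820, plus strand: cgggtatatgTATTTATgatttattaa
Sema5a, chr15:32692870-32692896, plus strand: gttatctcctTATTTATctacaaagga
For comparison, sites of 2 genes that rose with both forms were:
Nedd4, chr9:72749634-72749660, plus strand: ttttcgatttTATTTATaccgctcgag
Tm4sf1, first site, chr3:57286473-57286499, minus strand: tacaccttgtTATTTATttattttaat

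Ppp1r15a (GADD34, which restores translation after stress) and Tm4sf1 show overlapping copies, as AU-rich elements of cytokine mRNAs often do. Klf2, Zfp36l2 and Jun, all regulators with short-lived mRNAs, carry it and fell with both forms, yet Nedd4 and Tm4sf1 carry it and rose. Of the 12 largest falls 6 held the motif, as did 6 of the 12 largest rises. Genes with 3 or more copies were listed after their values were seen. Of those lowered alike, Rab3a, a GTPase of exocytosis, had 4 copies and -0.76 ± 0.19, Mllt11 6 copies and -0.56 ± 0.15, and Dnajb14, a chaperone of the endoplasmic reticulum, 3 copies and -0.54 ± 0.12. Osbpl8, a lipid transfer protein with a mean of 44920 normalized counts, had 3 copies and -0.39 ± 0.13.

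Antigen presentation had 3 called genes of 20 (15.0%, against 7.95% of all tested genes), all lower and all moved alike. Beside H2-DMb1, the non-classical class I gene H2-T23 changed by -0.64 ± 0.11 (adjusted p 7.13e-07) and the peptide transporter Tap2 by -0.29 ± 0.10 (adjusted p 0.0350). The adjusted p of Tap2 was 0.506 with scores divided by their central spread, 0.126 with fully correlated errors and 0.0655 after chromosome centring. Reads of H2 genes may be shared with their paralogues. The median shared effect of the list was -0.09, with median ratios of -0.39 for TTP and 0.22 for TTP-AA, and most members did not move alike. Interferon-stimulated genes showed this more plainly. Of 29 tested, 0 were called higher and 9 were called lower (31.0%, against 4.56% of all tested genes), while 0 were moved alike (3.59% of all). Their median shared effect was -0.32, with median ratios of -0.92 for TTP and 0.23 for TTP-AA. Usp18, which damps interferon signalling, had ratios of -1.81 and -0.24, Cmpk2 of -2.04 and 0.57, the RNA sensor Ddx58 of -1.38 and 0.05, and Oas1g of -1.49 and 0.20.

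Stress response genes had 2 rises and 2 falls among 27 (14.8% called, against 7.95% of all tested genes), and the falls were moved alike. Ppp1r15a changed by -0.49 ± 0.14 (adjusted p 0.0126) and Xbp1, a transcription factor of the unfolded protein response, by -0.33 ± 0.09 (adjusted p 0.00500). With scores divided by their central spread the adjusted p was 0.353 for Ppp1r15a and 0.260 for Xbp1, and with fully correlated errors it was 0.0622 for Ppp1r15a. The rises were Vldlr, with ratios of 0.69 and 1.96, and the amino acid transporter subunit Slc3a2, with 0.16 and 0.33. Slc3a2 lies on chromosome 19, and centred on that chromosome's median its shared effect was 0.10 (adjusted p 0.616) in place of 0.25. Of 26 p53 target genes, 4 rose and 4 fell (30.8% called, against 7.95% of all tested genes). Sesn1, a sestrin that restrains mTORC1, changed by -0.62 ± 0.11 (adjusted p 1.14e-06) and Eda2r, a TNF receptor family member, by 0.57 ± 0.13 (adjusted p 0.000377), both alike. With scores divided by their central spread the adjusted p of Eda2r was 0.0968. The ribonucleotide reductase subunit Rrm2b had ratios of -0.28 and -0.76 and the BH3-only gene Bbc3 of 0.09 and 0.97. Of 17 RAS feedback transcripts 1 rose and 2 fell (17.6% called, against 7.95% of all tested genes). Fosl1, an AP-1 subunit induced by ERK signalling, rose alike by 0.81 ± 0.17 (adjusted p 7.39e-05, or 0.0514 with scores divided by their central spread), and the ERK inhibitor Spry2 had ratios of -0.24 and -0.89.

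Matrix and adhesion genes had 5 called of 26 (19.2%, against 7.95% of all tested genes), all higher. The protease inhibitor Timp1 had ratios of 2.80 and 1.23, the collagen crosslinker Lox of 0.17 and 5.27, and the integrin Itgb5 of 0.26 and 0.86. Of 33 macrophage receptors 2 rose and 1 fell (9.09% called, near the share of all tested genes). Fcgr2b, the inhibitory Fc receptor, rose alike by 0.50 ± 0.13 (adjusted p 0.00462, or 0.253 with scores divided by their central spread), while Cd36, a scavenger receptor, had 0.24 and 1.17 and Fcgr1 -1.21 and -0.39. Of 10 tested macrophage markers 0 were called higher and 2 lower, Fcgr1 among them. In bulk RNA, fewer cells of a type and less RNA per cell cannot be told apart.

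Housekeeping lists were read against the 7.95% called over all tested genes. Of 45 ribosomal protein genes 0 rose and 1 fell (Rpl37, -0.20 ± 0.06), of 34 cell cycle genes 1 rose (Mcm5, 0.25 ± 0.07) and 0 fell, and of 34 oxidative phosphorylation genes 1 rose and 0 fell. That gene, Ndufv1 of complex I, had ratios of 0.40 ± 0.09 for both forms (adjusted p 3.44e-05). It lies on chromosome 19, and centred on that chromosome's median its shared effect was 0.25 (adjusted p 0.0290). Of 28 sterol genes 1 rose (Nr1h3, encoding LXR alpha, with ratios of -0.48 and 1.41). Of 40 decay factors 0 rose and 3 fell, the deadenylation regulator Tob1 with ratios of -0.21 and -0.78, the helicase Ddx6 with -0.11 and -0.47 and the deadenylase subunit Cnot8 with -0.04 and -0.47, and 0 were moved alike. Of the 4 Y-linked genes 1 was called (Eif2s3y). Of 2 tested dendritic and mast cell markers 1 was called (Zbtb46, -0.05 and -1.10), and the 1 tested neutrophil progenitor marker was not. In the TNF and NF-kB set the 4 largest called members, Lgals3bp (-2.82 and 0.78), Ccl20 (-0.10 and 1.47), Lgals9 (-1.23 and 0.37) and the pseudogene Rpl17-ps8 (-0.25 and -0.56), were not moved alike.

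Genes moved alike were unevenly spread over the chromosomes. Chromosome 3 held 73 of them, 71 lower and 2 higher, which is 12.7% of its 575 tested genes, and chromosome 19 held 56, 55 higher and 1 lower, 13.1% of its 427. The 10975 genes of the remaining genome held 301, or 2.74%. The median shared effect was -0.16 on chromosome 3, where 82.1% of genes were below 0, and 0.15 on chromosome 19, where 79.9% were above 0. Both forms contributed, with medians of -0.21 for TTP and -0.11 for TTP-AA on chromosome 3, and 0.19 and 0.11 on chromosome 19. For TTP-AA alone chromosome 3 was the lowest, but chromosome 11 lay next to it, also at -0.11. Chromosome 19 was not the highest, with 0.16 on chromosome 12 and 0.12 on chromosome 16. Over 8 stretches of 20 Mb the median shared effect on chromosome 3 lay between -0.22 and -0.12, and over 4 stretches of chromosome 19 between 0.08 and 0.18. On chromosome 19 the first stretch, which has the most tested genes, held 40 genes moved alike of 212 tested. The next ones held 4 of 82 and 11 of 120, and the last held 0 of 10, where the TTP-AA median was -0.08. Chromosome 12 had a median of 0.10 and 23 higher against 3 lower genes, and chromosome 10 had -0.06 with 31 lower against 3 higher, most of that from TTP (-0.14) and not TTP-AA (0.03). On all other autosomes and X the medians of the shared effect lay between -0.05 and 0.05.

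**Figure D5:**
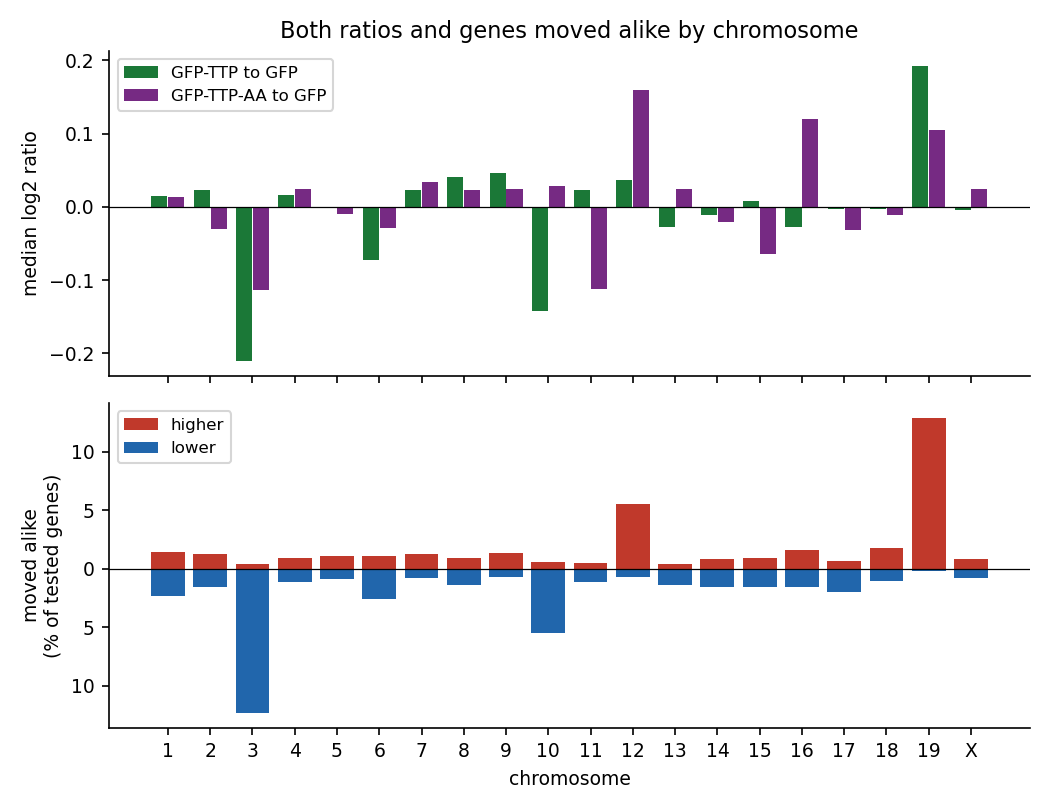
Upper panel, median log2 ratio to GFP over the tested genes of each chromosome for GFP-TTP (green) and GFP-TTP-AA (purple). Lower panel, percent of tested genes moved alike, higher upward and lower downward. Chromosomes 3 and 19 stand apart in the lower panel and, in the upper panel, for GFP-TTP. For GFP-TTP-AA the medians of chromosomes 11, 12 and 16 are of like or larger size.

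Leading genes on these chromosomes were picked after their values were seen. On chromosome 3, beside Nbea and B3galnt1, the membrane protein Tmem154 changed by -0.79 ± 0.11, the tight junction protein Cgn by -0.63 ± 0.19 and Tdrkh, a Tudor-domain protein, by -0.53 ± 0.13. On chromosome 19, beside Fosl1, the Cdc42-binding kinase Cdc42bpg changed by 0.70 ± 0.16, the SNARE Stx3 by 0.57 ± 0.12 and the peptide transporter Slc15a3 by 0.56 ± 0.15. With each ratio centred on the median of its chromosome, 286 genes were moved alike, 232 of them among the 430, with 16 on chromosome 3 and 12 on chromosome 19. In that setting all 24 genes with the largest effects, which were picked by size from the same ratios, were called. Fosl1 had a shared effect of 0.66 there (adjusted p 0.00280), and 82 of 145 lower genes with a 3′UTR (56.6%) held TATTTAT. A chromosome-wide trait of the GFP line and an effect of both TTP forms cannot be told apart with 1 line per vector.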

How the data were processed

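RNA-seq of 9 libraries (GFP, GFP-TTP and GFP-TTP-AA, 3 each) was used. Per the labels and the study's methods, the authors trimmed reads with Trim Galore, aligned them to GRCm38 with TopHat2 (2.0.12 per the labels, while the methods name another release), counted with HTSeq and fitted DESeq2 (1.6.3) with library date and condition as terms. The deposited normalized counts and mean counts (unit signal) come from that model, and the normalized table turned out to hold fitted means, so depth, leave-one-out fits and scatter could not be had from it. The deposited standard error of each comparison (a score in log2 units) was used only as an error. The comparison tables also hold the authors' fold changes, statistics and p-values, which were not used.

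Ratios of same-numbered columns were centred on their median over 11977 genes and averaged. The variance of the shared effect was 2 times the squared errors of both GFP comparisons, less the squared error of the comparison between forms, divided by 4, which holds the error both share through GFP (median correlation 0.50). P-values were two-sided normal, adjusted by Benjamini-Hochberg over all genes, and measure only the spread of these libraries, which may be technical. The script was tested on simulated data. Fitted counts were put on 1 scale per replicate number by the same centring, except the ranges and peaks given for cell type markers. Named were the 12 largest rises and falls moved alike with a mean of at least 50, the called members of the TTP family, iCLIP, feedback and early LPS lists, 6 fixed genes, and up to 4 called members of every other list. A few genes that this rule names are not reported here. The members and lists were chosen with earlier results of these data known. Positions, biotypes and 3′UTRs came from GENCODE M21 on GRCm38, with an entry for 11920 genes. Scripts ran in Python 3.11.15 with scipy 1.17.1, pandas 2.3.3 and numpy 2.4.6.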

Additional observations from a re-analysis of the deposited data

Results flagged for a closer look

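The forms differed by the Wald test of the difference itself (adjusted p under 0.05) in 45 of the 74 named genes, given here as the log2 ratio of GFP-TTP-AA to GFP-TTP. A negative value is a lower level with TTP-AA.

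Of the 45, 17 had been moved alike, so a common direction went with a difference in size. Among the falls, the fall was larger with TTP for Arhgap4 1.31, B3galnt1 0.76, Ano3 0.69, B3galt5 0.40, H2-DMb1 0.38 and H2-T23 0.32, and larger with TTP-AA for Lyz1 -0.71, Mylk -0.54 and Sema5a -0.55. Among the rises, the rise was larger with TTP for Nedd4 -1.79, Amz1 -0.83, Plxna4 -0.56, Flt1 -0.94, Fkbp9 -0.80 and Stac2 -0.60, and larger with TTP-AA for Prkcb 0.73 and Tm4sf1 0.95.

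The other 28 were not moved alike. Higher with TTP-AA were the interferon-stimulated genes Usp18 1.57, Cmpk2 2.61, Ddx58 1.43 and Oas1g 1.69, the inflammatory genes Ccl7 0.89, Ccl20 1.57, Socs1 1.53, Lgals3bp 3.60 and Lgals9 1.61, the receptors and adhesion genes Fcgr1 0.83, Cd36 0.93, Itgb5 0.61, Vldlr 1.27 and Lox 5.10, and Nr1h3 1.90, Bbc3 0.88, Eif2s3y 3.12 and Zfp36 0.67. Lower with TTP-AA were the early response genes Ier3 -0.90, Il23a -0.65 and Spry2 -0.66, the decay factors Tob1 -0.57, Ddx6 -0.36 and Cnot8 -0.43, and Rrm2b -0.49, Timp1 -1.57, Zbtb46 -1.05 and Rpl17-ps8 -0.30.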

How the results depend on the processing

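Dividing the scores by their central spread of 1.44 left 149 called genes (71 higher, 78 lower), of which 78 were moved alike (36 higher, 42 lower). With the errors of both ratios taken as fully correlated, 528 genes were called (219 higher, 309 lower) and 250 were moved alike (103 higher, 147 lower). Centring on chromosome medians left 286 moved alike, 159 of them lower, and asking the smaller ratio to be at least 2/3 of the larger left 259 (111 higher, 148 lower). The other settings, which were another centring, equal library sums, a pseudocount of 1, a mean of at least 50, a trend on GC content and length removed, a weighted mean, and a score of at least 2 in each form, kept these counts within 1.5 times. Equal library sums called 381 genes higher and 586 lower.

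Of the 74 named genes, 41 kept their side of the threshold in all 9 settings, and no called gene among them changed direction. The 24 genes with the largest effects were called in all 9. They were picked by size among called genes of the same fitted ratios, so this adds no separate support. Of 38 named genes moved alike, 28 stayed so with scores divided by their spread, 35 with fully correlated errors and 34 after chromosome centring. Dusp1 passed the threshold with equal library sums (adjusted p 0.0464) and with the GC and length trend removed (adjusted p 0.0445). The share of lowered genes with the 3′UTR motif lay between 45.1% and 56.6% in these settings. For the motif and the chromosome medians these settings were added after seeing the data. With the longest 3′UTR of each gene that share was 51.7%. The share of higher genes with the motif, 18.8% as reported, was 26.4% after chromosome centring. It was 27.3% with scores divided by their spread, against 27.7% of all tested genes.

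No paired analysis was possible because the normalized table holds fitted means without scatter, and the authors' model already held library date. For the same reason fits that leave out a library or the replicate block were not run, so no result here has a check against a single library.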
